A study of Mus musculus with 8 samples.

Results

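The monocyte lineage marker genes described here are Ccr2, Ly6c2, Clec12a, Adgre1, Cd68, Lyz2, F13a1, Fn1 and Lgals3, 9 of the 15576 genes in the deposited table and 9 of the 11937 that had enough counts to be tested. They were taken by gene symbol from a list of monocyte markers, and the list was drawn up with the difference between treated and untreated libraries already known. Their levels and their calls in the fit over all genes are therefore given as a description, and neither is read as a test. The mice were BCR-ABL×SCL-tTA double transgenics on the C57BL/6 background, in which the SCL promoter directs a transactivator that turns on BCR-ABL in stem cells once tetracycline is removed. Every library came from such leukemic mice, so both groups carry the oncogene, and no library of normal cells is used. The CML group came from untreated mice (4 libraries). The CML-TKI group came from mice that received imatinib (IM), an inhibitor of the BCR-ABL tyrosine kinase, by gavage on alternate days (4 libraries). The labels give 400 mg/kg for 4 weeks, or 30 days in the protocol field. The study's text names more than one dose and, for these libraries, a dose other than that of the labels. The labels describe the sorted bone marrow cells of all 8 libraries as lineage-negative, Sca1-positive, cKit-positive, Flt3-negative, CD150-negative and CD48-positive. This is the reverse of the CD150-positive, CD48-negative cells that the study's figure legends call LSCs, so the samples are named here as CML and CML-TKI libraries. In RNA, Slamf1 (CD150) was lower and Cd48 higher in the CML-TKI than in the CML libraries, with HSC genes summing to 1452 to 1673 CPM (counts scaled to the library total) in the CML and 68.2 to 432 CPM in the CML-TKI libraries. Ages, the number of animals behind a library and whether libraries came from separate animals are not given in the sources used here, so p-values below measure only the spread between these libraries.

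Monocytes are blood phagocytes that arise in the bone marrow from granulocyte-monocyte and monocyte-committed progenitors. In the mouse, the classical monocyte carries Ly6C and the chemokine receptor CCR2, which lets it leave the marrow along CCL2, and it can become a macrophage or an inflammatory dendritic cell in tissue. The factors PU.1, C/EBP, IRF8 and KLF4 direct this lineage, while long-term stem cells hold most of its products at low levels.

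Total estimated counts ranged from 4939640 to 8620100 in the CML and from 1041550 to 5104270 in the CML-TKI libraries. Levels are given as normalized counts scaled to the library total (CPM), and 3 counts, taken as the floor, equal 0.409 to 0.580 CPM in the CML libraries and 0.570 to 3.29 CPM in the CML-TKI libraries. CML 1, CML 2 and CML 3 lay close to each other (biological coefficient of variation 11.0%), whereas it was 28.1% over all 4 CML and 68.6% over the 4 CML-TKI libraries. CML-TKI 1 lay nearest to the CML libraries, and CML-TKI 3, the shallowest library, held 32642 CPM of erythroid genes where the other CML-TKI libraries held 36.5 to 298 CPM. The ribosomal RNA gene Rn45s took 20.2% to 38.3% of the counts in the CML and 9.23% to 22.5% in the CML-TKI libraries. Where leaving out a single library changed the call of a gene named below, turned its direction or moved a called value by over 1.5 times, the value without it is given beside the gene.

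In the libraries from IM-treated mice, all 9 monocyte markers lay higher than in those from untreated mice, and each CML-TKI library was above each CML library for 9 of 9 genes. The fitted log2 fold changes ran from 2.92 for Lyz2 to 8.04 for Ccr2, with a median of 5.70, beside a median of -0.00026 over all genes tested. All 9 had an adjusted p under 0.05, beside 6.29% of all genes tested that were called higher, 3.93% that were called lower and 10.2% called in either direction. Groups without overlap in this direction were found for 10.3% of all genes tested. These shares are background for a list that was chosen on this contrast, and nothing is read from them. In the bulk libraries, more cells of a type and more RNA per cell cannot be told apart, nor can fewer cells and less RNA per cell.

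The DNA ahead of 3 of the genes is shown because letters read by lineage factors can be looked for there, and because these stretches lie outside the gene as annotated in RefSeq and hold none of its GENCODE exons. Those of F13a1 and Cd68 are the 250 bases before an annotated start in RefSeq (GRCm38.p6). That of Ly6c2 is the first 155 of these 250 bases, since the annotated span of Ly6c2 reaches further upstream and takes in the remaining 95. All are read 5′ to 3′ on the strand of the gene, here the minus strand. They lie at chr15:75112067-75112221 for Ly6c2, chr13:37050245-37050494 for F13a1 and chr11:69666171-69666420 for Cd68. Capitals mark GAGGAAG, the letters of a PU.1-like site, and TTNNGNAA, the letters of a C/EBP-like site, on either strand.
Ly6c2: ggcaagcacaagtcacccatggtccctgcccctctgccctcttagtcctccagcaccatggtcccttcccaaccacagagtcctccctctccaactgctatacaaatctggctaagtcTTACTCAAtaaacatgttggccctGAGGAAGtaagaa
F13a1: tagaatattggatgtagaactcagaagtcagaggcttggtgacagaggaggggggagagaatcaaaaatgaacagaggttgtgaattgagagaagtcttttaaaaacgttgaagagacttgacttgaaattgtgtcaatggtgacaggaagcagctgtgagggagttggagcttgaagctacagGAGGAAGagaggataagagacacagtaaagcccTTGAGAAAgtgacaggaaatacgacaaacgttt
Cd68: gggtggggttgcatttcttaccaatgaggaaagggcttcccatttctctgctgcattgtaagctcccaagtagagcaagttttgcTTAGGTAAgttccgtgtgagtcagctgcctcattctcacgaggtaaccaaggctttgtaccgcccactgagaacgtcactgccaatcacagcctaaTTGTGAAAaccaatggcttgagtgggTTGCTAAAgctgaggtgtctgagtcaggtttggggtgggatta
Ly6c2 held GAGGAAG from base -108 to base -102 and a C/EBP-like match, TTACTCAA, from base -132 to base -125 relative to the start used. Relative to another annotated start of Ly6c2, these matches lay from base -142 to base -136 and from base -166 to base -159. In F13a1, GAGGAAG lay from base -66 to base -60 and TTGAGAAA from base -33 to base -26. The Cd68 stretch held 3 C/EBP-like matches, beginning at bases -165, -69 and -43, and no GAGGAAG. It also held the AP-1-like letters TGANTCA at bases -149 and -24, which are left in lower case.

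Promoter windows of 300 bases (250 before and 50 after a start) were found for 7 of the 9 genes, all but Fn1 and Adgre1. GAGGAAG was present for 3 of the 7 (Clec12a, F13a1 and Ly6c2), and for 15.4% of the 27025 mouse genes with a window (13.6% of all 32851 windows). TTNNGNAA was present for 6 of the 7, all but Lgals3, and for 44.1% of genes. TGANTCA was found for Cd68 and Clec12a and for 8.97% of genes, and the KLF-like letters CCNCNCCC for Cd68, F13a1 and Lgals3 and for 51.9% of genes. The ETS-IRF composite, the letters GGAA and GAAA separated by NN and read by PU.1 together with IRF8, was found only for Cd68 among the 7, at bases 24 to 33 after the start, and for 3.16% of genes. All motifs were searched on both strands, and in a second F13a1 window a C/EBP-like match, TTGAGGAA, shared letters with GAGGAAG. When only the 250 bases before the start were searched, GAGGAAG was found for 3244 of these genes, and the shares of genes were 40.3% for TTNNGNAA, 2.68% for the composite, 7.82% for TGANTCA and 48.5% for CCNCNCCC, and the genes holding each were the same except that Cd68 lost its composite match. A match is a stretch of letters and does not show that a factor was bound there.

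Among the trafficking receptors and surface antigens, Ccr2 (chr9:124101918-124109140), which encodes the receptor for the monocyte chemoattractant CCL2, was measured at 1.36, 2.90, 3.86 and 1.24 CPM in CML libraries 1, 2, 3 and 5. In CML-TKI libraries 1 to 4 it reached 213, 1017, 735 and 455 CPM. The lowest CML-TKI library was thus 55.1-fold above the highest CML library. Group means were 2.34 ± 1.27 CPM in CML and 605 ± 348 CPM in CML-TKI libraries (SD, n = 4 each), and the log2 fold change of 8.04 (standard error 0.65) was 13th in rank among all genes tested.

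Ly6c2 (chr15:75108161-75112066), which encodes a GPI-anchored antigen that defines classical monocytes, had 4.63, 4.25, 5.22 and 2.06 CPM in the CML libraries. The CML-TKI libraries had 139, 714, 536 and 411 CPM. The CML libraries were all within a narrow band, and the CML-TKI libraries were spread around a mean of 450.0 ± 242 CPM (SD, n = 4). The log2 fold change was 6.80 (standard error 0.58). Ly6c2 has a close neighbour, Ly6c1, also a member of the Ly6 family, and reads that fit both genes could have been divided between them by the authors' counting. The coding sequences of Ly6c2 and Ly6c1 (GENCODE vM21, 393 bases) differ at 9 bases, an identity of 97.7%, and share an identical run of 188 bases. Their first 90 coding bases, which hold 6 of the 9 differences, are shown with the differing bases in capitals.
Ly6c2: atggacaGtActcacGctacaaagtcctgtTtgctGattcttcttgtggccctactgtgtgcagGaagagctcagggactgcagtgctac
Ly6c1: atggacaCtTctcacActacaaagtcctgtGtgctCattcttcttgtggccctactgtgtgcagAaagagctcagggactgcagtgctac
Ly6c2 took 65.0% to 100% of the estimated counts of this pair in CML libraries and 87.4% to 97.8% in treated libraries. Ly6c1 itself was at 0 to 1.10 CPM in the CML libraries and at 9.37 to 23.02 CPM in the CML-TKI libraries (log2 fold change 5.41, adjusted p = 0.0096 by edgeR's quasi-likelihood F test, Benjamini-Hochberg adjusted, and a log2 fold change of 6.89 without CML 5).

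Clec12a (chr6:129349783-129365303) encodes an inhibitory C-type lectin of myeloid cells. It was close to the floor in the CML libraries, at 1.23, 0.965, 1.74 and 1.92 CPM. The CML-TKI libraries had 32.5, 158, 118 and 146 CPM. CML-TKI 1 stood below the other treated libraries but 16.9-fold above the highest CML library, and the log2 fold change was 6.25 (standard error 0.56).

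The macrophage antigens had the lowest levels per kilobase of the markers in treated libraries. Adgre1 (chr17:57358581-57483529), which encodes the F4/80 antigen of mature macrophages, had 1.77, 1.93, 2.13 and 0.550 CPM in the CML libraries and 23.2, 94.5, 50.4 and 29.9 CPM in the CML-TKI libraries. The groups were apart by 10.9-fold at their nearest libraries, with a log2 fold change of 4.95 (standard error 0.61). Cd68 (chr11:69664213-69666170), which encodes a glycoprotein of late endosomes and lysosomes, had 1.09, 0.772, 2.13 and 2.20 CPM in the CML libraries, or 4 to 16 counts. The treated libraries had 5.70, 18.3, 20.8 and 13.01 CPM. With 2.59-fold between the nearest libraries and a log2 fold change of 3.18 (standard error 0.63), Cd68 was the marker whose separation rested on the fewest counts in the treated libraries, 19 to 59. It was past the threshold with all 8 libraries and not past it without CML 1 (log2 fold change 3.05) or without CML 2 (2.96).

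Of the secreted and matrix proteins, Lyz2 (chr10:117277541-117282272) stood apart in untreated CML libraries, where it had the highest level per kilobase of the 9. It encodes lysozyme M, an enzyme that cleaves bacterial cell walls, and had 232, 218, 280 and 283 CPM in the CML libraries. The CML-TKI libraries had 674, 3249, 1971 and 1803 CPM. CML-TKI 1 was the nearest treated library, 2.38-fold above the highest CML library, and the other 3 lay well above it. Means were 253 ± 32.9 and 1924 ± 1054 CPM (SD, n = 4 each), and the log2 fold change of 2.92 (standard error 0.42) was the smallest of the 9. Lyz2 lies beside Lyz1, the lysozyme gene of intestinal Paneth cells, whose coding sequence of 444 bases differs from it at 22 bases (95.0% identity). Coding bases 43 to 132, where 13 of these differences fall, are printed with them in capitals.
Lyz2: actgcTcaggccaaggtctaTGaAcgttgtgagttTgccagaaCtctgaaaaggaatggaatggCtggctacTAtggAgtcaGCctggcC
Lyz1: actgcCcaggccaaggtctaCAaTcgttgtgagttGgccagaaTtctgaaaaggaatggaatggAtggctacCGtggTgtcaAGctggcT
Lyz2 took 96.1% to 98.4% of the estimated counts of the pair in every library. Lyz1 followed the same direction, with 3.95 to 7.34 CPM in CML and 18.04 to 80.0 CPM in treated libraries (log2 fold change 3.35, adjusted p = 0.00275 by edgeR's quasi-likelihood F test, Benjamini-Hochberg adjusted).

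F13a1 (chr13:36867178-37050244) encodes the A subunit of coagulation factor XIII, a transglutaminase that monocytes and platelets store. Its CML libraries had 6.54, 2.32, 5.60 and 2.47 CPM. Treated libraries had 303, 1856, 1381 and 892 CPM, so that F13a1 was 46.3-fold apart at the nearest libraries. The log2 fold change was 8.02 (standard error 0.70), next to that of Ccr2. Megakaryocytes also express F13a1. Of 5 tested megakaryocyte markers, 0 were higher past the threshold and 2 were lower (1 with any one CML library or CML-TKI 3 left out, and 5 without CML-TKI 4), and their summed level was 1198 to 1439 CPM in the CML and 48.7 to 520 CPM in the CML-TKI libraries.

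Fn1 (chr1:71585473-71653280), the fibronectin gene, had 9.94, 15.1, 15.5 and 9.76 CPM in the CML libraries. In the CML-TKI libraries it had 91.2, 433, 361 and 1012 CPM. CML-TKI 1, the lowest, was 5.90-fold above the highest CML library. CML-TKI 4 alone accounted for the high end, and the spread of Fn1 from lowest to highest treated library, 11.1-fold, was the widest of the 9 genes. The group mean was 474 ± 388 CPM (SD, n = 4) and the log2 fold change 5.24 (standard error 0.67).

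Lgals3 (chr14:47373860-47386167) encodes galectin-3, a lectin that binds beta-galactosides and is abundant in macrophages. It had 1.09, 1.74, 3.09 and 2.47 CPM in the CML libraries and 54.9, 142, 172 and 71.8 CPM in the CML-TKI libraries. The groups were 17.8-fold apart at the nearest libraries. Its treated libraries were the most alike of the 9 genes, with 3.13-fold between the highest and the lowest, and the log2 fold change was 5.70 (standard error 0.51).

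**Figure D1:**
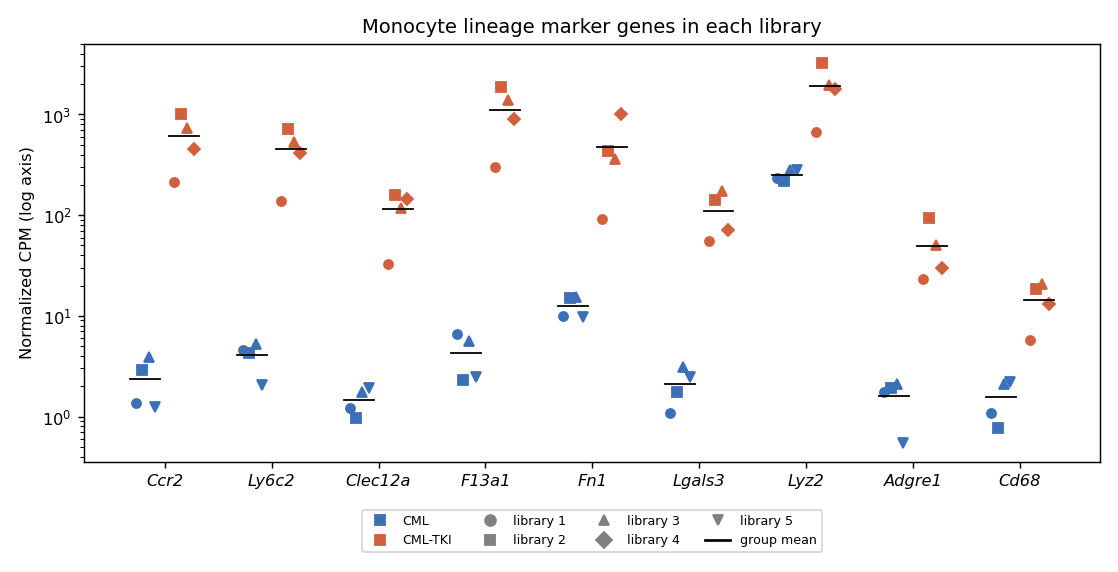
Normalized CPM (log axis) of the 9 monocyte lineage marker genes in each CML library (blue) and CML-TKI library (orange), with marker shapes for the library number and bars for the group means. For each gene the 4 treated libraries sit above the 4 untreated ones, CML-TKI 1 (circle) is the lowest treated library, and Lyz2 is the gene with a high level in untreated libraries.

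The lowest place among the treated libraries was shared by the markers, and the highest was not. CML-TKI 1 was the lowest treated library for 9 of 9 genes, CML-TKI 2 the highest for 6, CML-TKI 3 the highest for 2 (Cd68 and Lgals3) and CML-TKI 4 the highest for Fn1. The level in CML-TKI 1 was between 15.1% (Fn1) and 42.6% (Lgals3) of the mean of the other 3 treated libraries. Summed over the 9 genes, CML-TKI 1 had 1536 CPM, against 7683, 5345 and 4835 CPM in CML-TKI libraries 2 to 4 and 248 to 319 CPM in the CML libraries. As a share of all estimated counts, the markers made up 0.0258% to 0.0334% of the CML libraries and 0.158%, 0.822%, 0.468% and 0.515% of CML-TKI libraries 1 to 4. Leaving out a library moved the log2 fold changes both ways. Fn1 moved most, to 5.59 without CML-TKI 1 and to 4.55 without CML-TKI 4, from 5.24 with all 8 libraries. Lyz2 was at 3.20 without CML-TKI 1 and at 2.54 without CML-TKI 2, and Cd68 at 3.45 without CML-TKI 1 and at 2.98 without CML-TKI 3.

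**Figure D2:**
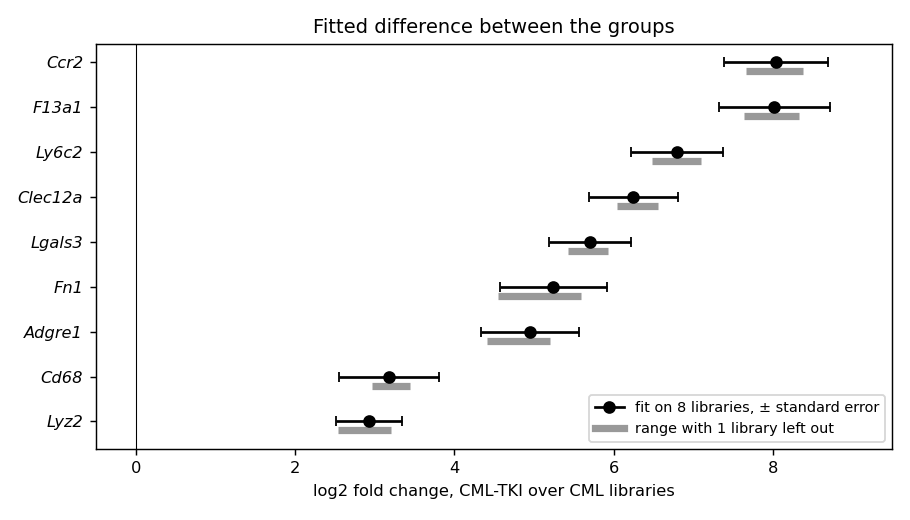
Fitted log2 fold change of CML-TKI over CML libraries for each marker gene (points, with bars of 1 standard error) and the range of the estimate when each library was left out in turn (grey). Ccr2 and F13a1 lie near 8 and Cd68 and Lyz2 near 3, and no range reaches 0.

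Composition within the marker set also differed between the groups. Lyz2 made up 89.4 ± 2.24% (SD, n = 4) of the summed CPM of the 9 genes in CML libraries and 40.1 ± 3.54% in CML-TKI libraries. F13a1 made up 1.503 ± 0.794% in CML and 22.03 ± 3.53% in CML-TKI libraries, Ccr2 0.827 ± 0.422% and 12.6 ± 2.12%, and Ly6c2 1.45 ± 0.521% and 9.21 ± 0.633%. Cd68 held 0.529 ± 0.196% in CML and 0.317 ± 0.0746% in CML-TKI libraries. Without Lyz2, the other 8 genes summed to 22.7 to 39.2 CPM in the CML libraries and to 862 to 4434 CPM in the CML-TKI libraries. The ratio of Ly6c2, the monocyte antigen, to Adgre1, the macrophage antigen, was 2.20 to 3.75 in the CML and 5.98 to 13.7 in the CML-TKI libraries. This set of 9 was chosen on the same contrast, so these shares are descriptions.

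Levels can be compared between genes only per length, and CPM was divided by the length of the GENCODE transcript in kilobases. In CML-TKI libraries the order was Lyz2 (1462 ± 801), Ly6c2 (547 ± 294), F13a1 (280.3 ± 168), Ccr2 (106 ± 60.7), Lgals3 (77.7 ± 39.4), Fn1 (57.0 ± 46.6), Clec12a (45.5 ± 22.7), Adgre1 (15.3 ± 9.93) and Cd68 (11.8 ± 5.43 CPM per kilobase, SD, n = 4 each). Neighbours in this order overlapped in their ranges over the treated libraries in each of the 8 pairs, but the genes were measured in the same libraries, and within a library the order Lyz2, Ly6c2, F13a1, Ccr2 held in 4 of 4, as did Clec12a above Adgre1. The other 4 pairs kept their order in 1 to 3 of the 4 treated libraries. In CML libraries the order was Lyz2 (193 ± 25.0), Ly6c2 (4.91 ± 1.68), Fn1 (1.51 ± 0.376), Lgals3 (1.48 ± 0.614), Cd68 (1.26 ± 0.588), F13a1 (1.07 ± 0.546), Clec12a (0.585 ± 0.178), Adgre1 (0.492 ± 0.220) and Ccr2 (0.408 ± 0.221 CPM per kilobase). There, Lyz2 lay above Ly6c2 and Ly6c2 above Fn1 without overlap, and the other 6 neighbouring pairs overlapped. The place of Ccr2 depended on the length used. Per kilobase of transcript it was the lowest of the 9 in untreated and the fourth in treated libraries, whereas per kilobase of coding sequence it was the fourth in untreated (2.09 ± 1.13) and the third in treated libraries (541 ± 311 CPM per coding kilobase, SD, n = 4 each). Lyz2 and Ly6c2 held the first and second places in both groups with either length. The Ccr2 transcript used has 5728 bases, of which 1119 are coding.

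**Figure D3:**
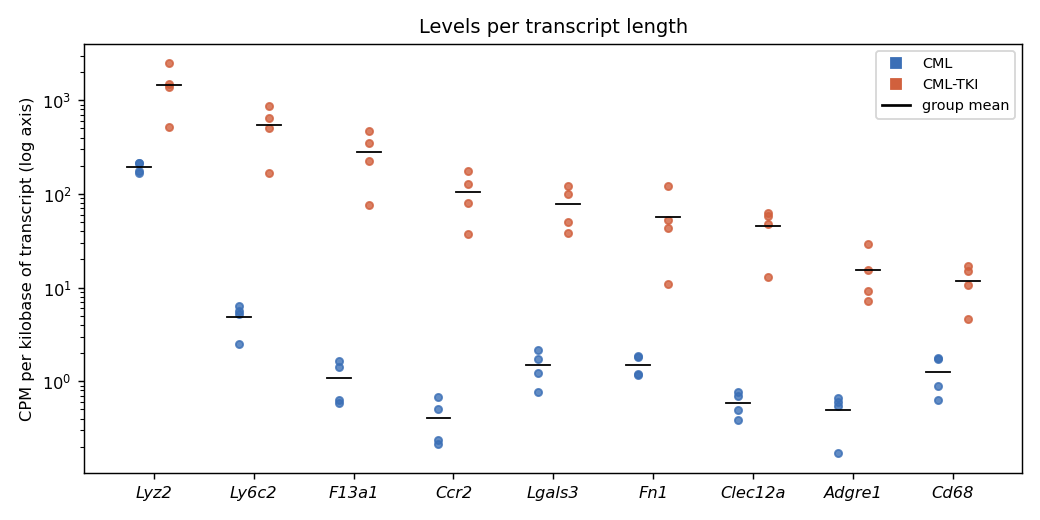
CPM per kilobase of transcript (log axis) of the 9 marker genes in the 4 CML (blue) and 4 CML-TKI (orange) libraries, ordered by the CML-TKI mean, with bars for group means. Lyz2 is the highest gene in both groups, and F13a1 is in place 6 in the CML and place 3 in the CML-TKI libraries.

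The marker genes varied together over the 8 libraries. Pearson's r of log2 CPM between each gene and the mean of the other 8 was 0.964 to 0.996, with Fn1 and Cd68 lowest and Ly6c2 highest. These 8 points share the split between groups and the low level of CML-TKI 1, so the value is a description. Outside the set, the genes most like the mean of the markers included Olr1, Klrb1f, Gapt, Ms4a6c, Pld4, Mpeg1 and Sema4a (r of 0.996 to 0.998, n = 8 libraries). Mpeg1, which encodes the pore-forming perforin-2 of phagocytes, had 576 ± 277 CPM in treated libraries beside 7.38 ± 3.91 CPM in CML libraries (SD, n = 4 each). Of the 11928 other genes tested, 525 had r of at least 0.9, 260 at least 0.95 and 82 at least 0.98.

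The other genes of the monocyte program were taken from lists that were written with results of these data known. Of 10 transcription factors, 6 were higher in CML-TKI libraries and 0 lower, with a median log2 fold change of 2.37. Gfi1, among these 6, is also on the neutrophil lineage list and is counted in both lists. Irf8, needed for monocyte and dendritic cell progenitors, rose from 6.37 ± 2.596 to 248 ± 126 CPM (log2 fold change 5.26, adjusted p = 8.70e-04 by edgeR's quasi-likelihood F test, Benjamini-Hochberg adjusted, as for the genes that follow). Cebpa rose by 3.83 (adjusted p = 0.00264), Gfi1, a repressor that favours granulocytes, by 3.47 (adjusted p = 0.00435), Klf4 by 3.35 (adjusted p = 0.00181), Cebpb by 2.79 (adjusted p = 0.0110) and Spi1, which encodes PU.1, by 1.83 on the log2 scale (adjusted p = 0.0156). Spi1 lost the call in 6 of 19 alternative analyses, among them those without CML 1 (adjusted p = 0.0622), CML 2 (0.0586) or CML 3 (0.0563). Zeb2, Maf and Nr4a1, the last required by nonclassical monocytes, did not pass, with all libraries. Nr4a1 had 29.9 to 69.3 CPM in the CML libraries and 37.6, 0.310, 15.3 and 1.56 CPM in CML-TKI libraries 1 to 4, and its log2 fold change of -1.64 (adjusted p = 0.329) was -3.45 without CML-TKI 1, where it passed (adjusted p = 0.0323).

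Of 11 tested monocyte receptors, 9 were higher and 0 lower, with a median log2 fold change of 3.68. Csf1r, the receptor for M-CSF on which monocytes and macrophages depend, had 0.965 to 3.67 CPM in the CML and 76.0 to 391 CPM in the CML-TKI libraries (log2 fold change 6.75, adjusted p = 5.49e-04 by edgeR's quasi-likelihood F test, Benjamini-Hochberg adjusted). The activating Fc receptor Fcgr3 rose by 6.58, the fractalkine receptor Cx3cr1, highest on nonclassical monocytes, by 6.18 (adjusted p = 0.0147), the shared GM-CSF receptor chain Csf2rb by 3.68 (3.07 without CML-TKI 2), the integrin Itgam by 3.64 and Csf2ra by 2.24 on the log2 scale. Cd14 (4.03, adjusted p = 0.0377) and Fcgr1 (3.74, adjusted p = 0.0473) also passed, and each lost the call in 11 of 18 alternative analyses. With a library left out, Cd14 lost it each time except without CML-TKI 1 and was at 4.86 without CML 5, and Fcgr1 each time except without CML-TKI 1 or CML-TKI 4, at 2.63 without CML-TKI 2. Cx3cr1 lost the call in 5 of 18, among them without CML 2 (adjusted p = 0.0604) or CML 5 (0.0504), and was at 7.98 without CML 3 and 5.48 without CML-TKI 4. Cd36, a scavenger receptor, and Spn, which encodes the sialoglycoprotein CD43, had log2 fold changes of -0.56 and -0.59 and did not pass, and Cd36 was at -2.22 without CML-TKI 3 (adjusted p = 0.0838).

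A further 12 of 13 tested monocyte genes were higher, with a median log2 fold change of 4.02. Vcan, the proteoglycan versican of classical monocytes, rose by 5.84 (adjusted p = 0.00126 by edgeR's quasi-likelihood F test, Benjamini-Hochberg adjusted, and a rise of 6.70 without CML 3), Ms4a6c by 5.19 (adjusted p = 7.82e-04) and the adaptor Tyrobp by 4.92 (adjusted p = 8.70e-04). Ms4a4c did not exceed 3 counts in any CML library and was at least 41.5-fold higher in CML-TKI libraries over the mean floor of the group. Cst3, a cystatin of macrophages and dendritic cells, was measured at 82.3 ± 18.3 and 157 ± 51.9 CPM and did not pass (adjusted p = 0.0782). It passed in 4 of 19 alternative analyses, among them without CML-TKI 1 (log2 fold change 1.13, adjusted p = 0.00827).

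**Figure D4:**
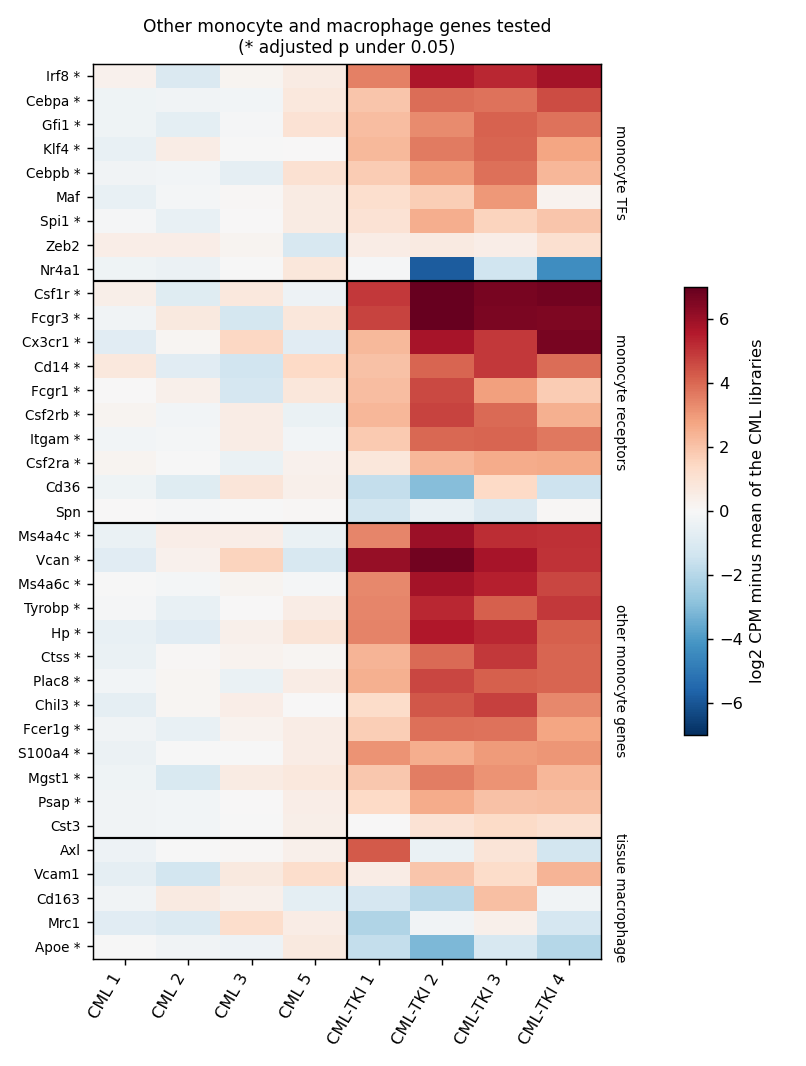
Difference in log2 CPM from the mean of the CML libraries for monocyte transcription factors, receptors, other monocyte genes and tissue macrophage genes that were tested (rows) in each library (columns), where a star marks an adjusted p under 0.05. Rows of the first 3 blocks are mostly red in the 4 CML-TKI columns and palest in CML-TKI 1, while the tissue macrophage rows show no common direction.

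Of 8 tested ligands and binding partners of the markers, 0 were higher and 1 was lower, with a median log2 fold change of 0.08. Lgals3bp, which encodes a secreted protein bound by galectin-3, fell by 1.73 on the log2 scale (adjusted p = 0.0303 by edgeR's quasi-likelihood F test, Benjamini-Hochberg adjusted), from 143 to 200 CPM in the CML libraries to 21.9 to 97.1 CPM in the CML-TKI libraries. It lost the call in 11 of 19 alternative analyses, with each library left out other than CML-TKI 1 (adjusted p up to 0.0817), and was at -2.36 without CML-TKI 1. The fibronectin receptor subunits Itga4 (303 ± 102 and 394 ± 133 CPM) and Itgb1 (239 ± 44.1 and 376 ± 292 CPM) did not pass, and Itgb1 turned from a log2 fold change of 0.66 to -0.03 without CML-TKI 1. Ccl2, the ligand of CCR2, was at 0 to 0.580 CPM in the CML libraries and at 0 to 0.760 CPM in the CML-TKI libraries, too low to be tested.

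Among relatives of the markers, 9 of 16 tested genes were higher and 0 lower, with a median log2 fold change of 1.46. Ccr1, a chemokine receptor, rose by 4.45 on the log2 scale (adjusted p = 0.00137 by edgeR's quasi-likelihood F test, Benjamini-Hochberg adjusted). Lgals1, the galectin-1 gene, rose from 1.48 ± 0.796 to 60.4 ± 32.4 CPM (log2 fold change 5.31, adjusted p = 7.82e-04), while Lgals9 (log2 fold change -0.87, adjusted p = 0.0557) did not pass. Lamp1 and Lamp2, lysosomal relatives of Cd68, and Clec7a, a lectin related to Clec12a, were higher, at log2 fold changes of 1.59, 1.32 and 3.26. Lamp2 lost the call in 8 of 19 alternative analyses, with each library left out other than CML-TKI 1 and CML-TKI 4 (adjusted p up to 0.0735). Adgre5 was higher by 1.14 (adjusted p = 0.0428) and lost the call in 13 of 19, with each library left out other than CML-TKI 1 (adjusted p up to 0.124). Adgre4 missed the threshold at 2.21 (adjusted p = 0.0508) and passed without CML-TKI 1 (2.49, adjusted p = 0.0112). Ly6e, of the Ly6 family, did not pass (log2 fold change 0.81, adjusted p = 0.145), but passed in 3 of 19 alternative analyses, among them without CML-TKI 1 (1.04, adjusted p = 0.0142).

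Among markers of other cell types, neutrophil lineage genes moved with the monocyte genes and HSC genes moved against them. The part of other cell types in the result was not tested. Of 16 tested neutrophil lineage genes, 14 were higher and 0 lower, a count that fell to 7 without CML 1 or CML 2, 8 without CML 3 and 9 without CML 5. The list had a summed level of 178 to 302 CPM in the CML libraries and of 1524, 8137, 8305 and 8678 CPM in CML-TKI libraries 1 to 4. The monocyte markers summed to 1.01 to 1.39 times this level in the CML libraries and to 1.01, 0.944, 0.644 and 0.557 times in CML-TKI libraries 1 to 4. Elane (log2 fold change 8.26), Mpo (7.94, and 8.54 without CML 5), Ctsg (7.91) and Fcnb (5.03), products of the granulocyte-monocyte progenitor and the early granulocyte, led this list, whereas Ltf (2.37, adjusted p = 0.101 by edgeR's quasi-likelihood F test, Benjamini-Hochberg adjusted) and Mmp9 (1.17, adjusted p = 0.414) did not pass. Ltf passed without CML-TKI 1 (2.77, adjusted p = 0.00229), and Mmp9 was at -0.12 without CML-TKI 3. In contrast, of 9 tested HSC genes 0 were higher and 4 were lower (Slamf1, Hlf, Meis1 and Gata2), and the summed HSC level was 1452 to 1673 CPM in the CML libraries and 432, 68.2, 122 and 149 CPM in the CML-TKI libraries. Hlf (-3.64) lost the call with each library left out other than CML-TKI 1 (adjusted p up to 0.0875), and without CML-TKI 1 Hlf was at -5.94 and Meis1 at -4.07. In that analysis 9 of 10 tested HSC genes were lower. CML-TKI 1, the treated library lowest in monocyte markers, was thus also the lowest in neutrophil and the highest in HSC genes.

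Adgre1 and Cd68 are also used as markers of resident tissue macrophages. Of 5 tested genes from a list of such markers, 0 were higher and 1 was lower (Apoe, a lipid carrier, log2 fold change -1.95, adjusted p = 0.0193 by edgeR's quasi-likelihood F test, Benjamini-Hochberg adjusted), and the sum over the list was 115 to 222 CPM in the CML and 108 to 483 CPM in the CML-TKI libraries. With a library left out, 1 gene was higher without CML 5 (of 7 tested), CML-TKI 1 (of 7) or CML-TKI 3 (of 6). Among genes not tested with all libraries, Gpnmb had 119 CPM in CML-TKI 1 and 0 CPM in the other treated libraries. Trem2 had 0 to 1.24 CPM in the CML libraries and 5.51, 24.2, 1.10 and 22.4 CPM in CML-TKI libraries 1 to 4. The means of Mertk and Siglec1, also untested, were lower in treated libraries. Apoe lost the call in 6 of 19 alternative analyses, among them without CML 1 (adjusted p = 0.0553), CML 5 (0.0581) or CML-TKI 4 (0.0510). Axl had 305 CPM in CML-TKI 1 and 5.98 to 28.5 CPM in the other treated libraries, and its log2 fold change, 2.51 with all libraries (not past the threshold), was -0.14 without CML-TKI 1. The complement genes C1qa, C1qb and C1qc were too low to be tested and reached their highest levels, 8.77 to 30.7 CPM, in CML-TKI 3. Of 5 tested dendritic cell genes, 0 passed in either direction, and Cd74 and H2-Ab1, of the MHC class II pathway, had log2 fold changes of 0.64 and -0.83. Cd74 had 39.5 to 51.3 CPM in the CML libraries and 7.03, 6.82, 213 and 59.1 CPM in CML-TKI libraries 1 to 4, and without CML-TKI 3 its log2 fold change was -0.85.

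**Figure D5:**
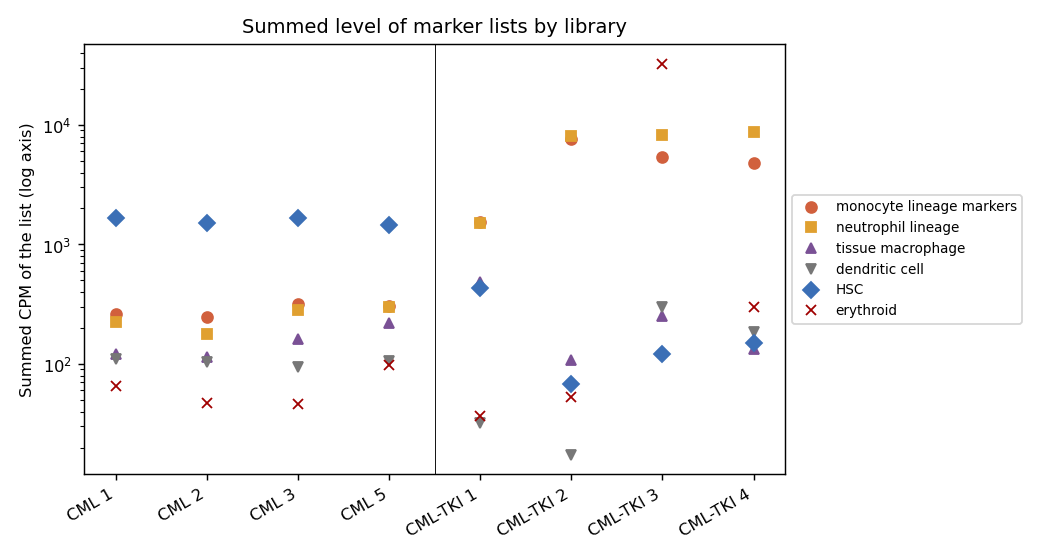
Summed CPM (log axis) of the monocyte lineage markers and of other marker lists in each library. Monocyte and neutrophil sums are higher and the HSC sum lower in the 4 CML-TKI libraries than in the 4 CML libraries, and the erythroid sum is high in CML-TKI 3 alone.

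The genes of the sort gate were read beside the markers. Kit was lower in CML-TKI libraries (938 ± 120 against 248 ± 44.2 CPM, log2 fold change -1.92, adjusted p = 8.70e-04 by edgeR's quasi-likelihood F test, Benjamini-Hochberg adjusted), and Slamf1, which encodes CD150, fell by 3.42 on the log2 scale (adjusted p = 0.00797), from 29.01 to 37.7 CPM to 0.620 to 6.58 CPM. Cd48 rose from 3.86 to 6.40 CPM to between 39.9 and 178 CPM (log2 fold change 4.35, adjusted p = 8.70e-04). Ly6a, which encodes Sca1, had 33.2 to 38.5 CPM in the CML libraries and 44.3, 9.61, 8.77 and 1.56 CPM in CML-TKI libraries 1 to 4. It did not pass with all libraries (log2 fold change -1.12) and passed without CML-TKI 1 (-2.52, adjusted p = 0.0117). Flt3, at 15.7 to 17.2 CPM in the CML and 13.7, 7.75, 18.6 and 63.2 CPM in the CML-TKI libraries, did not pass (log2 fold change 0.65, and -0.34 without CML-TKI 4). The labels give one gate for both groups, and the part of these gate genes in the marker result was not tested.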

How the data were processed

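RNA was isolated from the sorted cells, which the study calls LSCs, with the RNeasy Plus mini kit and made into Nextera XT libraries. According to the submitters' processing notes and the methods, the authors aligned read pairs to mm10 with STAR 2.6.1d and assigned them to the RefSeq transcriptome with Partek 8.0. They deposited estimated counts per gene without normalization, 1 column per library. Whether the counting used strand is not given in the sources used here. Fractional values made up 8.32% to 22.1% per library. Columns were matched to the labels by group and number, and the column named CML 5, a number that no label carries, entered the CML group unnumbered. The columns of no sample numbered 0.

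Estimated counts were rounded to whole numbers and analysed in R 4.3.3 with edgeR 4.0.16, with TMM factors. filterByExpr, set to at least 10 counts and a total of 15, kept 11937 genes for the quasi-likelihood F test with robust dispersions. P-values were adjusted by Benjamini-Hochberg over all of them, and calls were made at 0.05. The standard error was obtained from each log2 fold change and the root of its F. log2 CPM used a prior count of 2. Total counts were 1041550 to 8620100 per library, reads carried no molecular identifiers and so are not independent molecules, and floors of 3 counts cover counting error only. The 9 members and all gene lists were chosen with earlier results of these data known, so the members' calls are given as counts beside the background and are not read as tests. Genes named were all members, the transcription factors and receptors past the threshold, in each other list up to 4 past it with the largest change and 2 not past it with the highest level, near copies, gate genes and the 8 genes most like the members. Some genes that this rule names are not reported here. Others named, such as Ccl2, Clec7a, Lamp1, Lamp2, Adgre4, Adgre5, Cd36, Spn and the C1q genes, were chosen after their values were seen. Alternatives were DESeq2 1.42.0, voom of limma 3.58.1 with quality weights, other normalizations, no filter, thinning, a replicate block and other choices of libraries. The script was tested on simulated data, in which 191 of 11682 genes had an 8-fold change. edgeR found 80.1% of them and 2.55% of its calls were false, limma-voom found 73.8% (2.08% false) and DESeq2 92.7% (14.9% false). The simulation gave both groups the same dispersion for a gene. The CML-TKI libraries spread more than the CML libraries, so these rates need not hold for them. Gene positions and promoters were taken from RefSeq (GRCm38.p6, the assembly of mm10) and transcript lengths and coding sequences from GENCODE vM21.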

Additional observations from a re-analysis of the deposited data

Results flagged for a closer look

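One group of values among the 18 groups of the monocyte markers held a library far from the rest. Adgre1 had a log2 CPM of -0.05 in CML 5, where the other 3 CML libraries had 1.13 to 1.35, and the gap to the nearest library was 0.844 of the whole range, above the critical value of 0.829 for 4 libraries. The value in CML 5 rests on few counts, at 0.550 CPM beside a floor of 0.412 CPM in that library. Chance alone gives about 1 in 20 groups. Over all genes named and the lists, 22 of 246 groups held such a library.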

How the results depend on the processing

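The 9 markers kept a positive log2 fold change under every alternative in which they were tested, and their median, 5.70 with all libraries, ranged from 5.42 to 5.92 when each library was left out and from 5.54 to 6.29 under the other alternatives. The value of 6.29 came from thinning and is a median over 8 markers, without Cd68. The number of markers past the threshold was 8 to 9 with a library left out. It was 6 with CML 1 to 3 summed to 1 library (Cd68, Lyz2 and Fn1 lost) and 8 of 8 tested with all libraries thinned to the smallest total, where Cd68 was not tested.

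The number of genes past the threshold, 1220, was 505 (without CML 1) to 2504 (without CML-TKI 1) with 1 library left out. It was 2157 with DESeq2, 2563 with limma-voom, 122 with CML 1 to 3 summed and 3262 with only CML-TKI 2 and 4, an alternative chosen after seeing the data. Of 34 genes in the 3 monocyte lists, 27 were higher, with 23 to 28 when a library was left out and 10 with CML 1 to 3 summed. The 14 neutrophil genes became 7 to 15 with a library left out (7 without CML 1 or CML 2, 8 without CML 3, 9 without CML 5) and 5 with CML 1 to 3 summed.

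Libraries 1 to 3 of the groups share numbers, and nothing in the labels says that they are pairs. Deviations of same-numbered libraries correlated at -0.04, 0.10 and 0.09, and those of differently numbered libraries at -0.102 to 0.099. So few values of this size cannot decide whether the libraries were paired. With the replicate number as a block, 193 genes, 7 markers (Cd68 and Lyz2 lost), 15 monocyte list genes and 5 neutrophil genes were past the threshold. Without the block the same 6 libraries, a choice made after seeing the data, gave 589 genes, 8 markers and 7 neutrophil genes. For these changes the cause was not tested.

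The share of higher genes among those past the threshold was 61.6%, and 48.7% with limma-voom, 53.5% with DESeq2, 46.8% without CML-TKI 1, 40.0% with only CML-TKI 2 and 4, 72.1% without CML 1, 83.6% with CML 1 to 3 summed and 77.7% with the block. Over all genes, the median log2 fold change shifted to -0.12 when Rn45s was left out of the totals, to -0.11 with limma-voom and to -0.13 with the block. For single markers and list genes, 1909 values did not change their call or, for the markers, stayed within 1 SD, 202 no longer passed and 67 newly passed. Of the values past the threshold, with all libraries or in the alternative, 0 changed sign, while some values not past it did. Depth limits Cd68, with 19 to 59 counts in the CML-TKI libraries, and Adgre1, Clec12a and Cd68 in the CML libraries, with 4 to 16 counts, and CML-TKI 3 has the highest floor.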

Other observations

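Genes of other lineages stood at high levels in some of the treated libraries. Hba-a1 and Hbb-bs, the adult globin genes, had 19625 and 11924 CPM in CML-TKI 3 and at most 110 and 64.0 CPM in the other treated libraries, and neither passed the test between groups (adjusted p = 0.0503 and 0.0617 by edgeR's quasi-likelihood F test, Benjamini-Hochberg adjusted). Their log2 fold changes were 8.51 and 7.76 with all libraries and 1.93 and 1.12 without CML-TKI 3, and both passed without CML-TKI 1 or without CML-TKI 2, as did Hba-a1 without CML-TKI 4. Of 5 tested erythroid genes, 0 passed in either direction with all libraries, and 3 were higher without CML-TKI 1 or without CML-TKI 2. The B cell list summed to 259 CPM and the T cell list to 116 CPM in CML-TKI 3 (36.9 CPM in CML-TKI 4), while the CML libraries held 17.05 to 22.03 and 6.18 to 10.2 CPM. Of the 1 B cell and 2 T cell genes that could be tested, 0 passed. Basophil and mast cell genes summed to 118, 204, 4.38 and 1164 CPM in CML-TKI libraries 1 to 4 and to 2.06 to 4.05 CPM in the CML libraries. Prss34, a protease of basophils, had 77.9, 61.7, 0 and 840 CPM in the CML-TKI libraries. Of that list Cpa3 alone could be tested with all libraries, while 5 of 5 tested were higher without CML-TKI 3. Of 5 tested, 1 was higher without CML 1 or without CML 2, 3 without CML 3 and 2 without CML 5. Cpa3 was higher in the treated libraries, with a log2 fold change of 3.61 (adjusted p = 0.0321 by the same test). Cpa3 lost the call in 9 of 18 alternative analyses, with each library left out other than CML-TKI 1 and CML-TKI 3 (adjusted p up to 0.105), and was at 2.14 without CML-TKI 4. CML-TKI 4 was also the library with the highest Fn1 and Cx3cr1.

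Of the megakaryocyte genes, Gp9 (log2 fold change -3.27, adjusted p = 0.00589 by edgeR's quasi-likelihood F test, Benjamini-Hochberg adjusted) and Itga2b (-2.01, adjusted p = 0.0263) were lower in CML-TKI libraries, and Vwf (-2.93, adjusted p = 0.0562) and Pf4 (-2.54, adjusted p = 0.137) did not pass. Itga2b lost the call in 7 of 19 alternative analyses, among them without each CML library and without CML-TKI 3 (adjusted p up to 0.0698), and was at -2.74 without CML-TKI 4. Pf4 passed without CML-TKI 4 (-4.95), and Vwf without CML-TKI 2 (-2.54) or CML-TKI 4 (-3.77).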
